A study of Mus musculus with 48 samples.

Results

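The genes described here encode the F-box ubiquitin ligase subunits, taken as the protein-coding genes of the mm9 (NCBIM37) mouse annotation whose symbol starts with Fbxl, Fbxo or Fbxw. There were 76 such genes among 22367 protein-coding genes, with 18 in the Fbxl group, 37 in the Fbxo group and 21 in the Fbxw group. Methylated RNA was measured by MeRIP-seq, an assay that enriches RNA fragments bearing N6-methyladenosine (m6A) with an antibody and calls peaks over the input RNA of the same animal. Whole hippocampus of 24 male mice on a C57BL/6 background was used, with 3 animals in each of 8 conditions. In Hdh+/Q111 knock-in (KI) mice 1 of the huntingtin alleles has a lengthened CAG stretch and the other is normal, and they were compared with WT mice. Within each genotype, at 5 and at 8 months of age, trained mice had been through the training session of an object location memory task 30 min before tissue was collected. Naive mice had not. The knock-in is constitutive and so present in every cell, and whole hippocampus mixes neurons, glia and vessels, so that fewer cells of a type and less RNA per cell cannot be told apart. Because the lists hold called peaks only, the lack of a peak does not show that m6A was absent.

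SCF complexes attach ubiquitin to proteins that are to be degraded or altered in function. In them Cul1 is the scaffold, Rbx1 recruits the ubiquitin-conjugating enzyme, and Skp1 holds the exchangeable F-box protein, which binds the substrate. Fbxl proteins carry leucine-rich repeats, Fbxw proteins carry WD40 repeats, and Fbxo proteins carry other domains or none that is known. In neurons several of them act at synapses, in dendrite growth and in the circadian clock. m6A is written mostly within the motif GGAC and related sequences of mRNA, often in long internal exons and near the stop codon.

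The transcribed sequences below show GGAC, in capitals, nearest to the median peak summit of 7 F-box regions on which the results turn. The first 3 are among the most enriched coding peaks, Fbxl19 had the lowest Fisher p of age, Fbxw8 and Fbxo41 were listed in the authors' training comparisons, and Fbxw15 was the only gene of its cluster with peaks. All coordinates are NCBIM37 and each sequence is written 5′ to 3′ on the strand of the gene.
Fbxl21 coding exon, chr13:56638570-56638597, plus strand: ccttctgcccctGGACagtgaactcatc
Fbxl7 coding exon, chr15:26473079-26473106, minus strand: acttaagtcgctGGACattggtaaatgt
Fbxo5 coding exon, chr10:4544194-4544221, plus strand: tcaccaattgtgGGACatgataacaagg
Fbxl19 coding exon, chr7:134904784-134904811, plus strand: gtggcctaggatGGACctaagccggaga
Fbxw8 intron, chr5:118521605-118521632, minus strand: agggcgtcaccaGGACctccattcagtg
Fbxo41 3'UTR, chr6:85421791-85421818, minus strand: gtgccacaccctGGACtgggtgcaaacc
Fbxw15 intron, chr9:109456710-109456737, minus strand: gccgaagtggggGGACtgtttcttcata

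The motif lay 6 bases from the median summit in Fbxl21, 12 in Fbxl7, 20 in Fbxo5, 26 in Fbxl19, 32 in Fbxw8, 50 in Fbxo41 and 69 in Fbxw15. Of 12 F-box regions searched, 9 held GGAC within 100 bases of the median summit. The 3 without it were the leading regions of Fbxo30 and Fbxo32 and a second Fbxw15 intron. A search of the same width found GGAC at 69.8% of F-box summits and 62.7% of summits in all protein-coding genes (means over 24 animals). The count of 9 is therefore not particular to these regions. A match is a description of the letters and not a mapped m6A site.

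The lists held 22601 to 57293 peaks per animal (median 33826), and this number is the only measure of yield in the files used, since read totals are not among them. At the expanded gene itself, the authors' mean log2 level of a peak in the first intron of Htt was 11.52 in KI and 6.0 in WT naive mice at 5 months, and the level was also higher in KI in the other 3 genotype comparisons. Of 9 hippocampal neuron markers, 8 had a peak in every animal and Zbtb20 had none. Choroid plexus markers had peaks for 1 to 4 of 6 genes per animal, with none at its defining genes Ttr and Aqp1, and striatal markers for 4 to 5 of 5. All 4 microglial and all 3 endothelial markers had peaks in every animal, and astrocyte markers had peaks for 2 to 4 of 4 and oligodendrocyte markers for 3 to 4 of 4. Peak calls therefore report presence in the mixed tissue and not the proportion of its cells.

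F-box genes carried m6A peaks more often than protein-coding genes as a whole. A peak overlapped the body of 39 of 76 F-box genes (51.3%) in all 24 animals, against 7891 of 22367 protein-coding genes (35.3%). No animal had a peak in 15 F-box genes (19.7%), against 8496 of all protein-coding genes (38.0%). These are counts without a test, and the F-box genes were also longer, with a median gene body of 25.4 kb against 15.4 kb. Input RNA was not used separately, so the comparison was not limited to genes expressed in hippocampus. Together they held 259 peak regions of 81807 in the series, where a region joins all overlapping peaks of the 24 animals. A peak was called in all 24 animals in 49 of these regions and in a single animal in 55, and 37 overlapped another protein-coding gene. The peak lists carry no strand, so signal in those 37 cannot be assigned to 1 gene.

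The 3 groups differed in how often they were marked. All 18 Fbxl genes had a peak in some animal and 13 (72.2%) had one in every animal. Of the 37 Fbxo genes, 21 (56.8%) had a peak in every animal and 3 had none, namely Fbxo3, Fbxo39 and the muscle gene Fbxo40. Of the 21 Fbxw genes, only 5 (23.8%) had a peak in every animal and 12 (57.1%) had none. That last figure came from 1 locus. A tandem cluster of 12 Fbxw genes lies on the minus strand of chromosome 9, between 109041968 and 109648603. Fbxw13, Fbxw14, Fbxw16, Fbxw18, Fbxw19, Fbxw20, Fbxw21, Fbxw22, Fbxw24, Fbxw26 and Fbxw28 had no peak in any animal, while Fbxw15 had 7 regions and a peak in all 24 animals. Outside the cluster Fbxw9 had none. Only uniquely mapped reads were kept by the authors, which removes reads shared by near-identical copies, and the part of this in the missing peaks was not tested. Whether these genes were expressed in the tissue was not examined either.

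**Figure D1:**
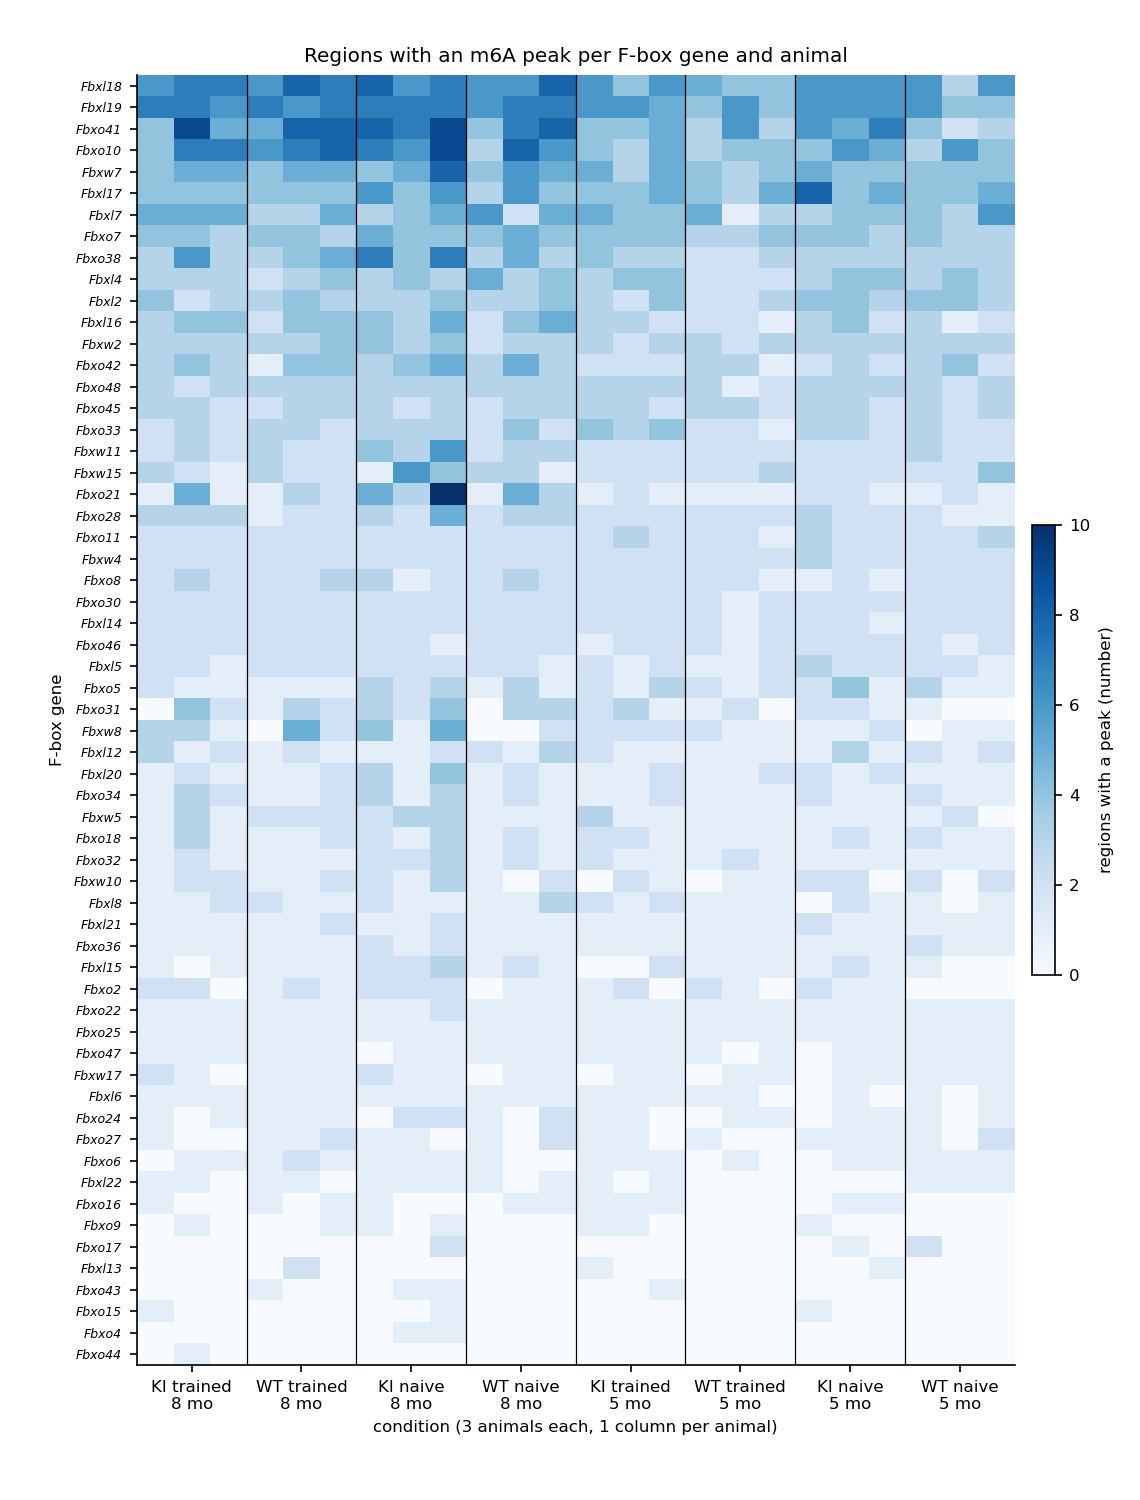
Number of peak regions called per animal (colour scale) for 60 F-box genes with a peak in any animal, in rows, and the 24 animals by condition, in columns. The row of Fbxl22 shows a region that lies mostly in Herc1, and the highest cell is Fbxo21 with 10 regions in a KI naive animal of 8 months.

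As the heat map of regions by gene shows, most rows were filled across all 8 conditions and a minority had gaps. The largest number of regions was 12 in Fbxl17, whose product takes part in quality control of BTB-domain proteins and whose gene spans 442.6 kb. Fbxl7, which spans 352.4 kb, held 10 regions. Fbxo41 and Fbxo21 span 33.42 kb each and held 11 and 10 regions. At the other end, Fbxl22 and Fbxo44 had a peak in 1 animal, Fbxo4 in 2, Fbxl13, Fbxo15 and Fbxo17 in 3, the meiotic regulator Fbxo43 in 4, Fbxo9 in 7 and Fbxo16 in 11.

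Among regions called in every animal, the 8 highest median fold enrichments belonged to Fbxl17, Fbxl21, Fbxo30, Fbxw15, Fbxl7, Fbxo5, Fbxo32 and Fbxo46. Fold enrichment is the ratio of pull-down over local input signal at the summit, as MACS2 gives it. The median over 24 animals was 10.7 in an intron of Fbxl17 (lowest 5.98, highest 18.1) and 10.25 in a coding exon of Fbxl21 (4.72 to 14.8). It was 9.59 in a coding exon of Fbxo30 (5.70 to 16.8), whose product acts in muscle wasting, and 9.39 in an intron of Fbxw15 (3.39 to 12.8). In the coding exons of Fbxl7 and Fbxo5 it was 8.78 (5.52 to 12.0) and 8.69 (3.60 to 14.7). In the 3'UTR of Fbxo32, the atrophy ligase atrogin-1, it was 8.23 (4.61 to 12.1), and in a coding exon of Fbxo46 it was 7.86 (4.08 to 12.5). The range over animals of each of these regions overlapped those of the other 7. The same 24 animals were measured at every region and no comparison within animals was made, so this order was not tested.

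Summits of F-box peaks lay more often in coding sequence and less often in introns than those of all protein-coding genes. Coding sequence held 48.9% ± 4.10 of F-box summits and 40.1% ± 4.58 of all summits (mean ± SD over 24 animals). Introns held 17.5% ± 3.65 of F-box summits against 30.1% ± 4.73 of all summits. The 3'UTR shares were 25.01% ± 2.89 and 22.4% ± 1.71, and the 5'UTR shares were 7.96% ± 2.35 and 6.24% ± 1.10, F-box genes first in each pair. These shares were not tested, and there were 77 to 171 F-box summits per animal.

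**Figure D2:**
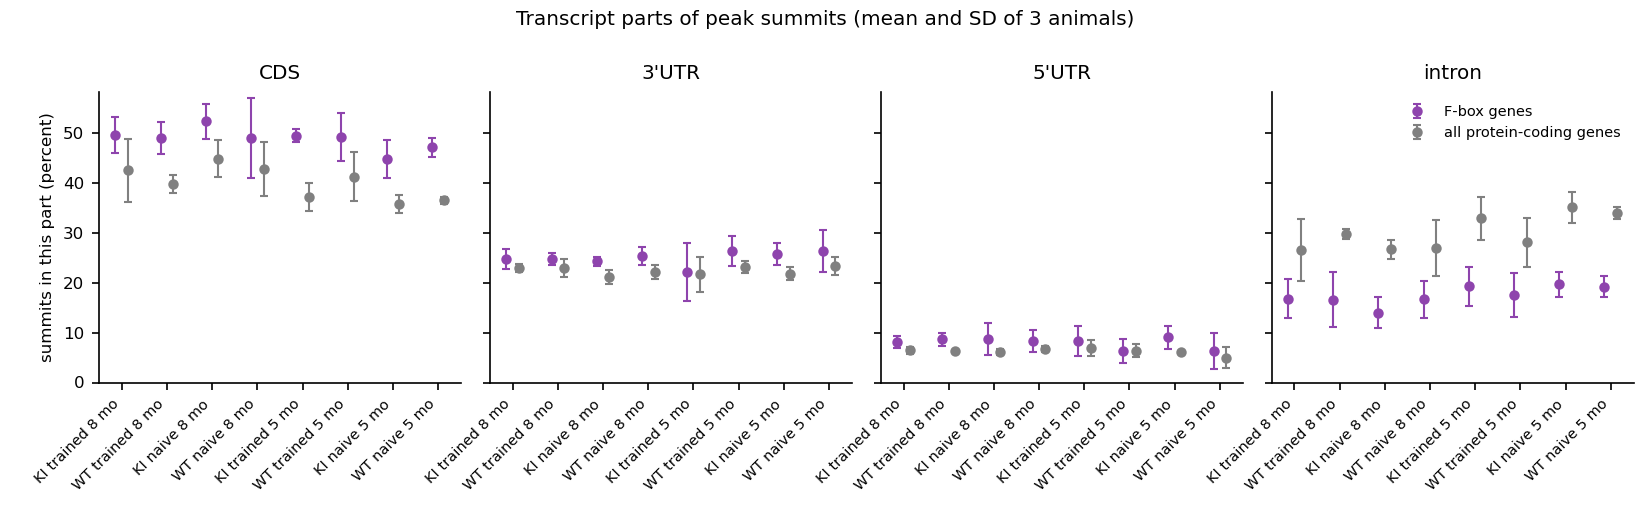
Share of peak summits (percent) in each transcript part for F-box genes (purple) and all protein-coding genes (grey) in each condition. Bars and lines give the mean and SD of 3 animals, and intron shares of F-box genes lie below those of all genes.

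GGAC stood within 50 bases on either side of the summit in 47.5% ± 4.26 of F-box summits and in 41.6% ± 1.58 of all summits (mean ± SD, 24 animals), searched on the transcribed strand. By part, the F-box and overall shares were 51.2% and 47.0% in coding sequence, 41.4% and 29.6% in introns, and 42.2% and 47.5% in the 3'UTR. The wider motif DRACH (A, G or T, then A or G, then AC, then A, C or T) was present at 86.3% ± 3.21 of F-box summits and 85.5% ± 0.981 of all summits. As the plot of transcript parts shows, the higher coding share of F-box genes was present in the conditions of both genotypes.

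The number of marked F-box genes was close in all groups. KI animals had a peak in 52.1 ± 2.19 F-box genes and WT animals in 49.7 ± 2.99 (mean ± SD, n = 12 each). The difference of 2.42 genes did not hold after adjustment over 9 tests (2-sided permutation test, p = 0.0415, adjusted p = 0.116). Trained animals had 51.1 ± 2.19 genes and naive animals 50.7 ± 3.47 (permutation test, adjusted p = 0.786), and 8-month animals had 51.9 ± 2.50 against 49.8 ± 2.89 at 5 months (permutation test, adjusted p = 0.1502).

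The number of F-box regions was higher at 8 months. Animals of 8 months had 107 to 194 regions (median 138) and animals of 5 months had 90 to 129 (median 111), so the groups overlapped. The means were 137.8 ± 23.4 and 109.6 ± 13.9 (SD, n = 12 each), a difference of 28.3 regions (permutation test, p = 0.00102, adjusted p = 0.00918). As a share of all regions of the animal, F-box regions made up 0.405% ± 0.0274 at 8 months and 0.376% ± 0.0319 at 5 months (permutation test, adjusted p = 0.110). When the same number of best peaks was taken from every animal, the difference was 4.75 regions and was not called (permutation test, adjusted p = 0.262). For genotype the regions were 132.9 ± 23.99 in KI and 114.5 ± 20.4 in WT (adjusted p = 0.116), and for training 117.8 ± 18.8 in trained and 129.7 ± 27.3 in naive animals (adjusted p = 0.299), by the same permutation test with n = 12 each.

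**Figure D3:**
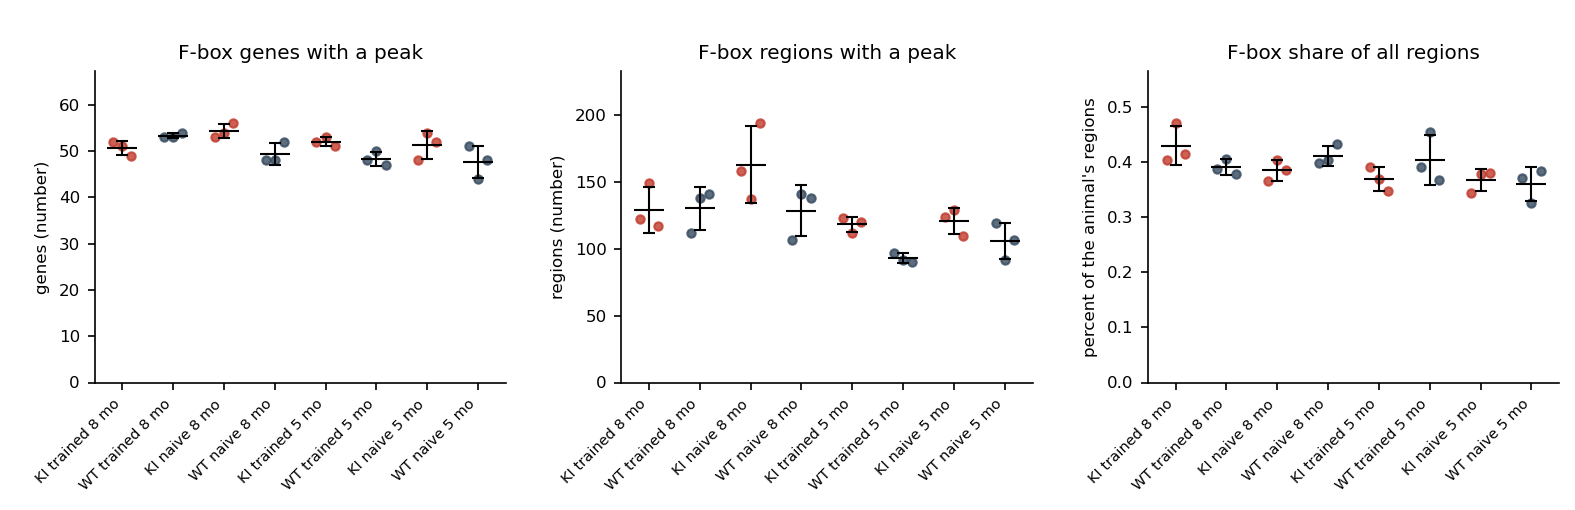
F-box genes with a peak, F-box regions, and F-box regions as a percent of all regions of the animal, by condition. Points are animals (KI red, WT dark) and bars give the mean ± SD of 3, with the 3 KI trained animals of 8 months between 49 and 52 genes and the 3 WT trained animals of that age between 53 and 54.

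Within conditions the genotypes did not overlap in the number of marked genes in 3 of 4 pairs. In trained mice of 8 months, KI animals had 52, 51 and 49 genes and WT animals had 53, 53 and 54. In naive mice of 8 months, KI animals had 53, 54 and 56 and WT animals 48, 48 and 52. In trained mice of 5 months, KI animals had 52, 53 and 51 and WT animals 48, 50 and 47. KI was thus lower in the first pair and higher in the other two. With 3 animals against 3, an exact permutation test cannot give a p below 0.1, which is what all 3 pairs gave. The plot of counts by animal shows these values, and the total number of regions per animal leaned the same way, with 28161 to 31632 in KI and 28859 to 37272 in WT trained mice of 8 months, 33854 to 50299 in KI and 26892 to 34856 in WT naive mice of that age, and 30340 to 34492 in KI and 20233 to 24796 in WT trained mice of 5 months. The part of this yield in the gene counts was not tested.

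No single F-box region passed a test of whether peaks were called more often in 1 group. Fisher's exact test was run on 35110 regions of the genome called in 3 to 21 animals, of which 114 lay in F-box genes, with Benjamini-Hochberg adjustment. After adjustment 0 F-box regions were called for genotype, training or age, against a background of 0.00285%, 0% and 0% of all regions. At an unadjusted p below 0.05 there were 2 F-box regions for genotype (1.75%, background 1.79%), 1 for training (0.877%, background 1.44%) and 14 in 9 genes for age (12.3%, background 9.8%). Both genotype regions were called in more KI animals (background 1.72%, against 0.0684% in more WT animals), and the training region in more trained animals (background 0.128%, against 1.31% in more naive animals). All 14 of the age regions were called in more animals at 8 months (background 8.86%, against 0.937% in more animals at 5 months), and the animals had 26892 to 50299 regions in all at 8 months and 20233 to 36061 at 5 months.

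Fbxl19 led the age comparison. Its product is related to a group of CpG-binding F-box proteins, and its coding region at chr7:134904565-134904923, from which the sequence above is taken, had a peak in 9 of 12 animals at 8 months and in 0 of 12 at 5 months (Fisher's exact test, p = 3.36e-04, adjusted p = 0.188). Fold enrichments where it was called were 4.40 and 9.72 in KI trained, 3.36 and 3.28 in WT trained, 6.75, 3.68 and 8.01 in KI naive, and 4.73 and 4.74 in WT naive mice. An intron of Fbxo10, which in human cells has been linked to degradation of the cell death regulator BCL2, was called in 10 of 12 animals at 8 months and 2 of 12 at 5 months, both of them KI naive (Fisher's exact test, adjusted p = 0.256). A 3'UTR region of Fbxw8 and an intron of Fbxo34 were each called in 6 animals at 8 months and none at 5 months (Fisher's exact test, adjusted p = 0.312). None of these regions was called in every animal of 8 months.

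For genotype, the lowest Fisher values were those of Fbxl4, which acts in mitochondrial DNA maintenance, and Fbxo2, which binds sugar chains of glycoproteins and is abundant in neurons. Every KI animal had the Fbxl4 coding peak at chr4:22354154-22354572, against 7 of 12 WT animals (Fisher's exact test, p = 0.0373, adjusted p = 1). The Fbxo2 intron at chr4:147537953-147538489 had a peak in 9 KI and 3 WT animals (Fisher's exact test, p = 0.0391, adjusted p = 1). A coding region of Fbxo33 followed with 10 KI and 5 WT animals. For training, an intron of Fbxw8, the partner of Cul7 in dendrite growth, was called in 11 of 12 trained and 5 of 12 naive animals (Fisher's exact test, p = 0.0272, adjusted p = 1). A second Fbxw8 intron was called in 7 trained and 2 naive animals (Fisher's exact test, p = 0.0894), and a region of Fbxl2 in 8 trained and 12 naive animals.

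Peak strength was compared in the 12187 regions called in all 24 animals, 49 of them in F-box genes, by limma on log2 fold enrichment centred on the median of each animal. In each of 12 contrasts 0 F-box regions passed an adjusted p of 0.05, against a background of 0.00821% for training, 0.0164% for training in KI mice of 8 months and 0% for the other contrasts. At an unadjusted p below 0.05 the F-box regions numbered 1 for genotype, 1 for training and 2 for age of the 49, beside 4.01%, 3.77% and 7.7% of all regions. Training in WT mice of 8 months gave 4 (background 3.88%), KI minus WT gave 3 in trained mice of 5 months (background 3.62%), 3 in trained mice of 8 months (background 4.6%), 2 in naive mice of 5 months (background 3.58%) and 0 in naive mice of 8 months (background 5.38%), and training gave 2 in KI mice of 5 months (background 3.32%), 2 in WT mice of 5 months (background 3.22%) and 2 in KI mice of 8 months (background 5.98%). The contrast of training in KI minus training in WT gave 3 (background 3.96%). The differences below are therefore sizes with their standard error, none of which passed the test. Most of the regions named were chosen for a low p in these same contrasts. Values of 3 and 3 animals that do not overlap there follow in part from that choice and are not further support. How often all regions showed such a gap was not counted.

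The cell cycle genes included the lowest limma p of any factor. Fbxo5, also called Emi1, holds back the anaphase-promoting complex. Its coding region at chr10:4543984-4544658 had fold enrichments of 7.47 to 14.7 (median 10.3) in the 12 KI animals and 3.60 to 9.76 (median 6.68) in the 12 WT animals, with the genotypes overlapping between 7.47 and 9.76. The log2 difference, KI minus WT, was 0.60 ± 0.15 (SE, limma, adjusted p = 0.701), the lowest unadjusted p of the 49 regions in any of the 3 factors. Naive mice of 5 months had values of 11.4, 12.2 and 12.5 in KI and 7.55, 6.96 and 5.12 in WT, with no overlap. Among trained mice of 8 months they were 14.7, 8.75 and 9.13 in KI and 3.60, 9.76 and 4.85 in WT, with 1 WT animal above 2 of the KI animals. Among the other cell cycle genes, Fbxo43 had a peak in 4 animals, Fbxo4 in 2, Fbxo31 in 19 and Fbxw7 in all 24.

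**Figure D4:**
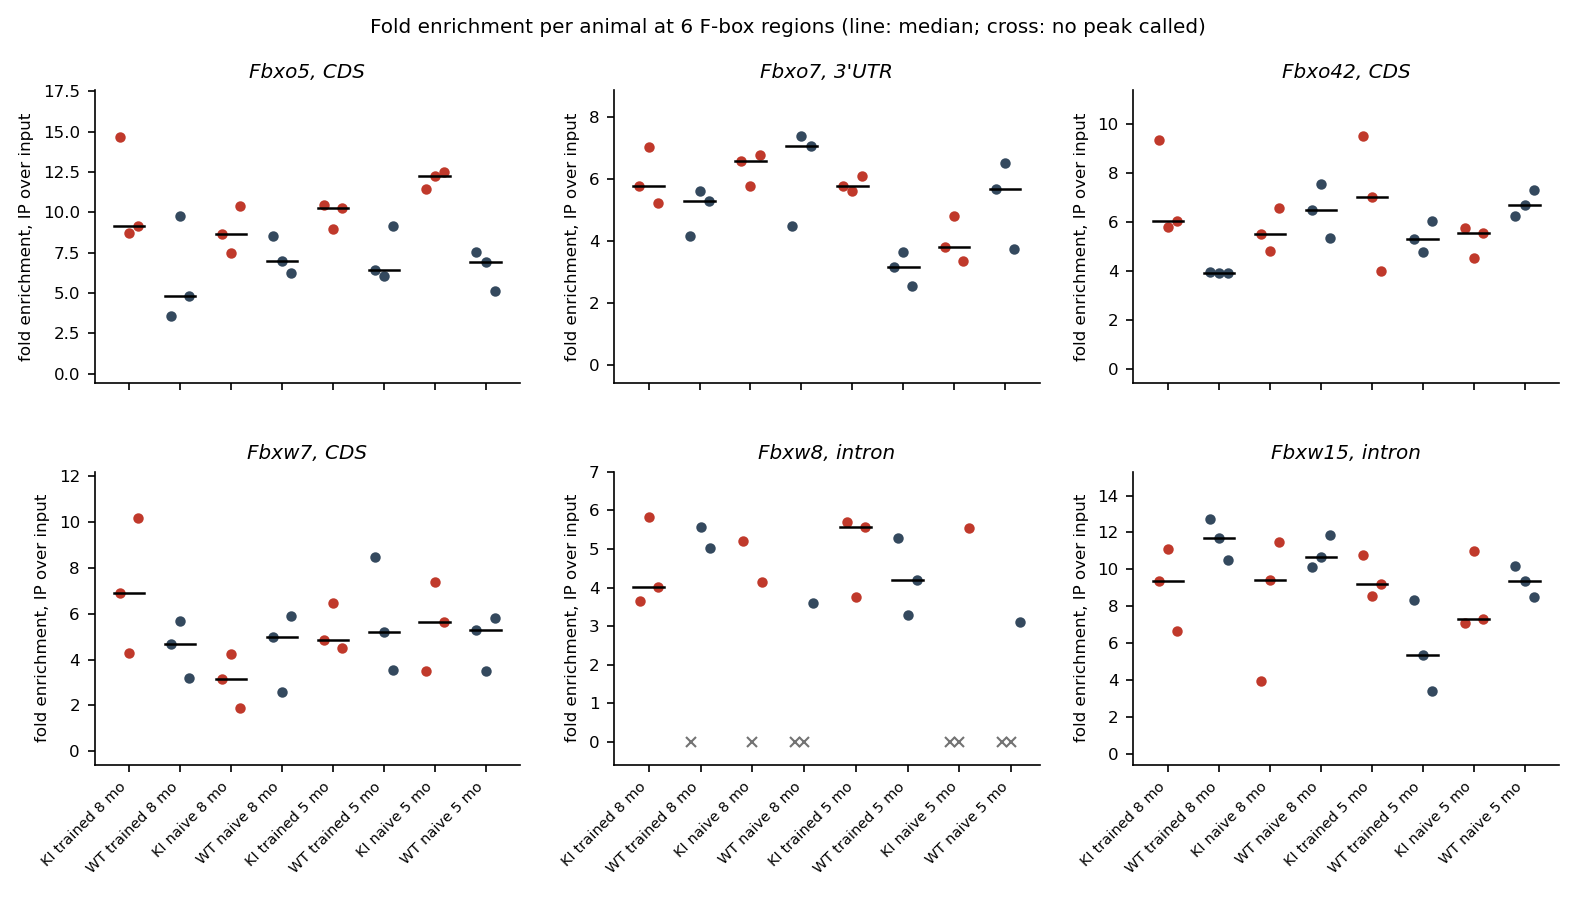
Fold enrichment over input (linear axis) in each animal at 6 F-box regions, by condition, with KI in red and WT dark. Lines are medians, and crosses stand for animals without a called peak, as in several naive animals at the Fbxw8 intron.

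Fbxw7, which targets cyclin E, Notch and Jun for degradation, had peaks in 5'UTR, coding sequence and 3'UTR in every animal, with median fold enrichments of 7.30, 4.91 and 3.42. At the coding region, KI mice of 8 months had 6.91, 4.27 and 10.17 when trained and 3.16, 4.25 and 1.88 when naive. The closest values, 4.27 and 4.25, are given before centring on the median of each animal. Those medians were 5.49 to 5.89 in the trained and 5.55 to 5.91 in the naive animals, so this narrow gap does not separate the groups on the scale that was tested. The log2 difference was 1.19 ± 0.40 (SE, limma, adjusted p = 0.748). WT mice of that age had 4.70, 5.67 and 3.17 when trained and 4.96, 2.57 and 5.89 when naive, which overlapped. The Fbxw7 gene shares part of its length with Arfip1.

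Genes of mitochondria and iron were Fbxo7, mutated in a form of Parkinson's disease, Fbxl4, and Fbxl5, the iron sensor that removes iron regulatory protein. A 3'UTR region of Fbxo7 at chr10:85513234-85514728 had fold enrichments of 5.77, 5.60 and 6.11 in KI and 3.17, 3.64 and 2.53 in WT trained mice of 5 months, with no overlap (log2 difference 0.76 ± 0.24 SE, limma, adjusted p = 0.999). Naive mice of that age had 3.82, 4.80 and 3.34 in KI and 5.68, 6.52 and 3.76 in WT, and these groups overlapped. The contrast of training in KI minus training in WT was 0.68 ± 0.24 (SE, limma, adjusted p = 0.9998). Over age the region was higher at 8 months by 0.36 ± 0.12 (SE, limma, adjusted p = 0.469). Fbxl4 and Fbxl5 had coding regions in all animals, with medians of 7.00 and 4.67.

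Among synaptic genes, Fbxl20, or SCRAPPER, degrades the active zone protein RIM1, and Fbxo45 works in synapse formation. The Fbxl20 3'UTR region had 9.36, 7.46 and 3.73 in WT trained and 3.09, 3.11 and 3.58 in WT naive mice of 8 months, and all 3 trained values lay above the naive ones (log2 difference 0.96 ± 0.35 SE, limma, adjusted p = 0.9997). In KI mice of 8 months the values overlapped, with 4.17, 5.97 and 3.24 in trained and 3.29, 8.32 and 4.73 in naive animals. The 2 coding regions of Fbxo45 had medians of 4.16 and 4.54, and the second differed by -0.35 ± 0.18 between 8 and 5 months (SE, limma, adjusted p = 0.685). Fbxo42, which ubiquitinates p53, had 9.37, 5.82 and 6.05 in KI and 3.98, 3.94 and 3.93 in WT trained mice of 8 months at a coding region, again without overlap (log2 difference 0.79 ± 0.27 SE, limma, adjusted p = 0.998). The plot of fold enrichment by condition shows that the 3 WT values there were the lowest of any condition.

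Of the clock genes, Fbxl21 binds the cryptochromes and Fbxw11 is a beta-TrCP protein that recognises Per proteins. The Fbxl21 coding region printed above ranged from 4.72 to 14.8 without a contrast below an unadjusted p of 0.0942 (limma). The Fbxw11 3'UTR region called in all animals ranged from 2.90 to 5.65 with a median of 3.92. A second 3'UTR region of Fbxw11 was called in 3 of 3 KI naive mice of 8 months, at 3.01, 2.88 and 4.54, and in 0 of 3 KI trained mice of that age.

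Genes of glycoprotein recognition lie side by side in 2 places and were marked in part of the animals. Fbxo6, Fbxo44 and Fbxo2 follow each other on chromosome 4 between 147519825 and 147540533 and had a peak in 18, 1 and 17 animals. Fbxo27 and Fbxo17 are neighbours on chromosome 7 and had a peak in 16 and 3 animals. At the Fbxo6 coding region the fold enrichment was 1.97 to 6.83 (median 2.94) in the 18 animals. At the Fbxo2 intron named above, KI naive mice of 5 months had 3.96, 1.61 and 1.82 and no WT naive mouse of that age had a peak. Such 3-of-3 against 0-of-3 patterns were counted for each pair, with no test of the difference from the background. KI but not WT naive mice of 5 months had 1 of 170 F-box regions (0.588%, background 0.726%), which was this Fbxo2 intron. KI but not WT trained mice of 5 months had 3 of 163 (1.84%, background 1.83%), in Fbxo33, Fbxo16 and Fbxl16. KI but not WT naive mice of 8 months had 2 (0.862%, background 1.15%), in Fbxw5 and Fbxo41, and trained mice of 8 months had 0 of 189 in either direction (background 0.122% in KI and 0.585% in WT). The direction of WT but not KI gave 1 region in naive mice of 5 months, the one shared by Fbxl22 and Herc1 (0.588%, background 0.123%), and 0 in trained mice of 5 months and naive mice of 8 months (background 0.0276% and 0.0384%). The peaks of the WT naive mice in that region did not reach the body of Fbxl22. Only 1 animal, a KI naive mouse of 8 months, had a peak that did.

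For training, the same count gave 3 regions in all KI naive and no KI trained mice of 8 months (1.3%, background 1.51%), in Fbxo5, Fbxw11 and Fbxl15, and 0 in the other direction (background 0.0404%). In KI mice of 5 months there was 1 in naive only, the Fbxo41 3'UTR region (0.571%, background 0.38%), and 0 in trained only (background 0.31%). WT mice of 8 months had 1 in trained only, a second Fbxo2 intron with fold enrichments of 2.37, 2.87 and 3.0 (0.524%, background 0.557%), and 0 in naive only (background 0.178%). WT mice of 5 months had 1 in naive only (0.641%, background 1.06%), and 0 in trained only (background 0.0483%). The former was again the region of Fbxl22 and Herc1, where the peaks of these animals did not reach Fbxl22.

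Of the muscle atrophy genes, Fbxo32, Fbxo30 and Fbxo25 had peaks in all 24 animals and Fbxo40 in none. The Fbxo32 3'UTR region had fold enrichments of 4.61 to 11.9 (median 8.102) at 8 months and 7.39 to 12.1 (median 9.37) at 5 months, which overlapped (log2 difference -0.30 ± 0.14 SE, limma, adjusted p = 0.626). At Fbxo25 the single region had a median of 3.02.

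The authors also deposited tables of peaks that they found to differ between 2 conditions, listed up to a p of 0.05, with a mean log2 level per condition. These levels are the authors' means, without an SD, and each table was normalised on its own. In the 8 tables that compare 2 conditions, 49 of the 76 F-box genes were listed with 233 peaks on their bodies, and 27 were not listed. Tables that share a condition are not independent, and a listed peak is a selection by the authors and not a call made here.

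For genotype in naive mice of 5 months, 8 of 125 F-box regions reproducible in 2 animals overlapped a listed peak higher in KI (6.4%, background 6.04%) and 23 one lower in KI (18.4%, background 12.4%). The split was the other way in naive mice of 8 months, with 20 of 159 higher (12.6%, background 10.2%) and 11 lower (6.92%, background 5.84%). Of 117 in trained mice of 5 months, 14 were higher (12%, background 14.2%) and 8 lower (6.84%, background 3.88%), and of 134 in trained mice of 8 months, 24 were higher (17.9%, background 11.7%) and 6 lower (4.48%, background 8.41%). F-box genes followed the direction of the background in each genotype table.

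For training in KI mice, 20 of 129 F-box regions were higher in trained mice at 5 months (15.5%, background 11.3%) and 16 lower (12.4%, background 11.1%). At 8 months 16 of 157 were higher (10.2%, background 7.93%) and 19 lower (12.1%, background 9.52%). In WT mice at 5 months 7 of 112 were higher in trained animals (6.25%, background 3.28%) and 17 lower (15.2%, background 17.2%). In WT mice at 8 months 10 of 133 were higher (7.52%, background 11.5%) and 23 lower (17.3%, background 11.7%), where the background was almost even.

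**Figure D5:**
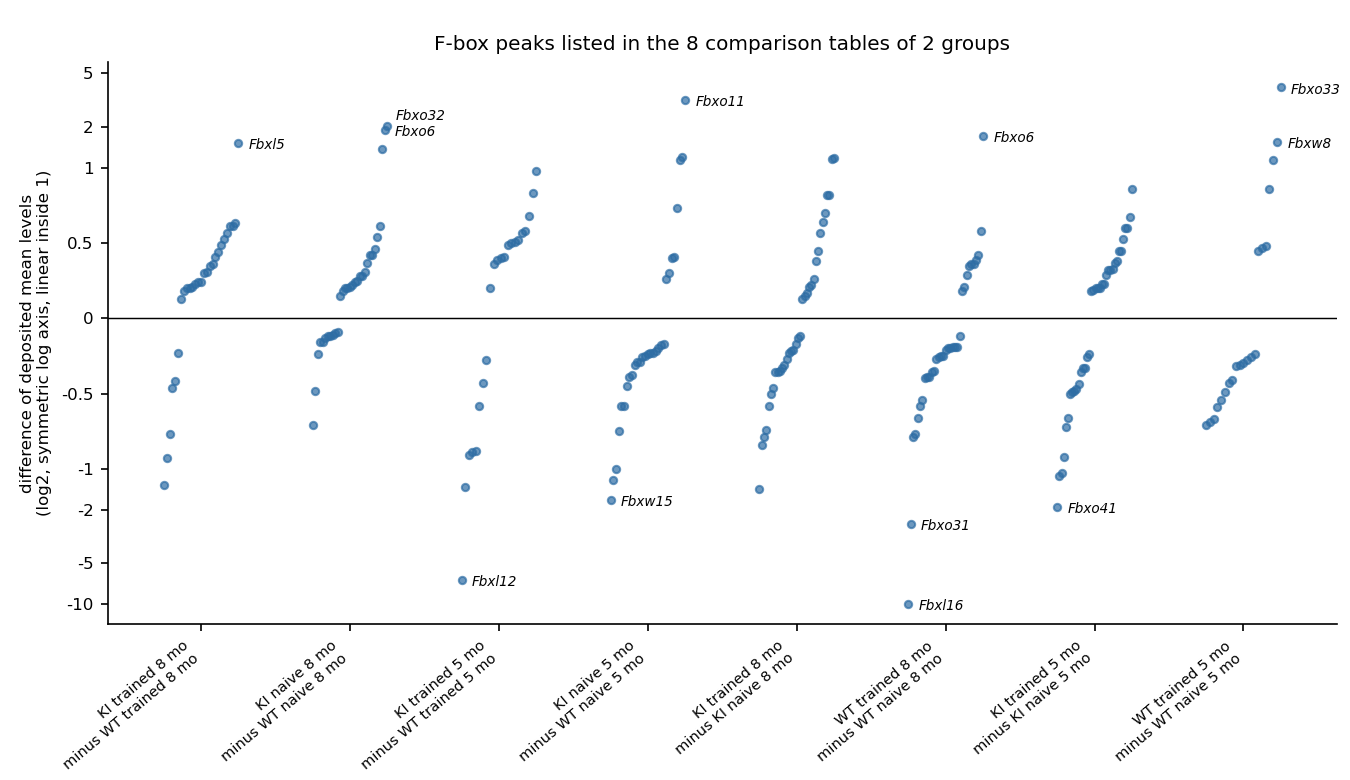
Difference of the authors' 2 mean log2 levels (KI minus WT, or trained minus naive) for each listed F-box peak in the 8 comparison tables, on a symmetric log axis. Most peaks lie within 1 of 0 on either side, and the named peaks differ by 1.5 or more.

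Most listed F-box peaks differed little, as the plot of table differences shows: 25 of 233 differed by at least 1 on the log2 scale (background 9.08% of all listed peaks). Fbxl17 was in all 8 tables, with 13 peaks. Taking KI over WT and trained over naive, 9 of these had the higher level and 4 the lower. Its 3'UTR peak had levels of 12.12 in KI and 12.41 in WT naive mice of 5 months, and of 12.29 in KI and 12.09 in WT trained mice of that age. Fbxl19, Fbxw7, Fbxl2 and Fbxl7 were in 7 tables each, with Fbxl19 lower in 10 of its 14 peaks, counted the same way. In Fbxl19 the largest difference was at an intron, with 8.29 in KI trained and 9.43 in KI naive mice of 5 months.

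The Fbxw8 intron printed above was listed in 3 of the 4 training tables, each time at a higher level in trained mice. In WT mice of 5 months its levels were 8.18 when trained and 6.62 when naive. KI mice had levels of 8.05 when trained and 7.38 when naive at 5 months, and of 7.91 when trained and 7.09 when naive at 8 months. It was not listed for training in WT mice of 8 months. The peak was called in all 3 trained animals and in 1 or 2 of 3 naive animals of each of those pairs, the same direction as the counts of called animals given above, which come from the same libraries. Between genotypes it was 7.82 in KI and 8.75 in WT trained mice of 8 months.

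Fbxw15 was listed 6 times, 5 times at a lower level in KI than in WT mice and once at a lower level in trained than in naive KI mice of 8 months (5.72 and 6.46). Its second intron region had levels of 5.29 in KI and 7.00 in WT naive mice of 5 months, 5.93 in KI and 7.30 in WT trained mice of 5 months, and 5.66 in KI and 6.97 in WT trained mice of 8 months. The first intron region was 8.36 in KI and 9.25 in WT trained mice of 5 months. The fold enrichments over input there were 10.8, 8.53 and 9.19 in KI and 8.36, 5.37 and 3.39 in WT, which is the other direction. Level and fold enrichment are different quantities, since only the second is divided by input RNA.

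Other peaks with large differences were Fbxo6, Fbxo41, Fbxo32 and Fbxw11. The Fbxo6 coding peak had 8.17 in KI and 6.27 in WT naive mice of 8 months, and 8.21 in trained and 6.49 in naive WT animals of that age, so the WT naive mice were the low group in both tables that share them. At 5 months in naive mice it was the other way, with 7.41 in KI and 8.42 in WT. The Fbxo41 3'UTR peak, in a gene expressed mainly in neurons, had 7.49 in trained and 9.41 in naive KI mice of 5 months and was called in 0 of 3 and 3 of 3 of them. The paper names Fbxo41 among HD-linked genes with a differential peak in naive mice of 5 months. A coding peak of Fbxo41 had 9.91 in KI and 8.77 in WT naive mice of that age, called in 3 and 2 animals. It had 9.91 in trained and 8.76 in naive WT mice of 5 months, so WT naive mice were the low group in both comparisons. The Fbxo32 5'UTR peak had 7.17 in KI and 5.14 in WT naive mice of 8 months (called in 3 and 1 animals). The second Fbxw11 3'UTR peak had 9.25 in KI and 7.88 in WT naive mice of 8 months.

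Some of the largest listed differences were not matched by the peak calls. An intron peak of Fbxl16 had -0.10 in trained and 9.86 in naive WT mice of 8 months, yet was called in 2 of 3 animals of each. A 5'UTR peak of Fbxl12, which overlaps Ubl5, had -0.16 in KI and 6.42 in WT trained mice of 5 months and was called in all 3 animals of each. In the comparison with KI naive mice of 5 months, those same KI trained mice had 7.96 at this place, against 8.45 in naive mice. The authors' level of these animals thus depended on the comparison, and the -0.16 is not a stable measure of them. A coding peak of Fbxo33 had 6.92 in trained and 3.0 in naive WT mice of 5 months. A coding peak of Fbxo31, a cyclin D1 ligase subunit, had 4.91 when trained and 7.46 when naive in WT mice of 8 months, and both peaks were called in 2 of 3 animals on either side. A peak at the start of Fbxo11 had 9.18 in KI and 5.99 in WT naive mice of 5 months, called in 3 and 2 animals. Synaptic Fbxo45 was listed with small differences, such as 13.59 in KI and 13.18 in WT trained mice of 5 months and 13.64 in trained and 13.41 in naive KI mice of that age.

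The partners of F-box proteins were also widely marked. Of 34 SCF core and regulator genes, 17 had a peak in all 24 animals and 21 to 29 (median 25) had one in any given animal. Cul1, the scaffold, had 6 regions, Cul7 had 8, and the exchange factors Cand1 and Cand2 had 5 and 9, each with a peak in all 24 animals. The RING subunits Rbx1 and Rnf7 had 1 region each, called in 19 and 22 animals. Skp1a, which holds the F-box, had no peak in any animal, and neither did Nedd8, the modifier that activates Cul1, nor Nae1 of its activating enzyme. F-box proteins named otherwise ranged as widely, with Kdm2a (14 regions), Kdm2b (12) and Btrc (11) marked in all 24 animals, Skp2 in 16 and the cyclin gene Ccnf in 1.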

How the data were processed

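Per the labels and the study's methods, the authors trimmed reads with BBDuk, aligned them to mm9 with STAR 2.7.3a, kept unique reads outside repeats, and called peaks for each pull-down and its input with MACS2 2.2.6. The deposited lists give a fold enrichment ratio and a −log10 q-value at each summit. In the deposited comparison tables, made with DiffBind 2.8.0 and bedtools, the authors' mean log2 level of each condition and the positions were used. Their fold changes, p-values and false discovery rates were not used, except that the deposited p-value column was read to find that the tables end at 0.05. All 10 tables name the same 2 groups in their headers, so the order was taken from the series design. A table that pools genotypes for trained and naive mice of 5 months showed the Htt intron peak at 10.39 and 4.84, although both groups hold both genotypes, and it was left out with its counterpart of 8 months. Inputs are not used separately.

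Peaks of the 24 animals were joined when they shared 1 base. A gene counted as marked when a peak overlapped its body by 1 base, and a summit was given to coding sequence, 3'UTR, 5'UTR or intron in that order. Counts per animal were compared by permutation (100000 resamples) or exact permutation tests, called animals by Fisher's exact test, and fold enrichment by limma 3.58.1 in R 4.3.3 with all 8 conditions as cell means, with Benjamini-Hochberg adjustment over all regions. Python 3.11.15, numpy 2.4.6, pandas 2.3.3, scipy 1.17.1 and matplotlib 3.10.9 were used. On simulated KI and WT values for 12187 regions, limma recovered 99.5% of 200 regions changed by log2 1, and 7.01% of its calls were false. Each peak list comes from 1 animal, and p-values measure the spread between these animals. Sequences were read from the NCBIM37 genome, whose chromosome lengths hold all peaks. Members, lists and named genes (the most enriched, most listed, lowest p, largest differences, unmarked and role genes) were chosen with earlier results of these data known. Another 26 ways of processing were run. Values of 1 member are counted in the totals and are not reported here by name.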

Additional observations from a re-analysis of the deposited data

Results flagged for a closer look

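The genotype difference in the number of F-box genes with a peak changed sign between conditions. The size of that change passed a permutation test whose null is no genotype difference in either pair. In trained mice of 8 months the KI minus WT difference was -2.67 genes, and in naive mice of 8 months it was 5 genes, so that they differed by -7.67 genes (permutation of genotype labels within each pair, 400 arrangements, p = 0.005, adjusted p = 0.045 over 18 tests). In trained mice of 5 months the difference was 3.67 genes, and the 8-month trained value differed from it by -6.33 genes (p = 0.005, adjusted p = 0.045, same permutation test). A p of 0.005 is the smallest that 400 arrangements can give. Because the null is no difference in either pair, such a p does not by itself show that the 2 differences are unequal. Both comparisons also hold the same trained mice of 8 months, so they are not independent. The total number of regions per animal moved the same way. With equally long lists of the best peaks of each animal, the 2 values were 2 (permutation p = 0.565) and 2.33 (permutation p = 0.525), so that neither direction nor call was kept.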

How the results depend on the processing

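No paired analysis was possible because every animal belongs to 1 condition and the conditions share no animal numbers. For F-box genes per animal, the trained minus naive difference of 0.417 was -0.667 when only summits in exons counted and ranged from -0.189 to 0.902 when 1 animal was left out, below 0 only without 1 of the WT naive animals of 5 months. The 8 minus 5 months difference of 2.08 genes was -0.25 with peak lists of equal length. For F-box regions, the trained minus naive difference of -11.9 was 1.08 with lists of equal length, and the age difference of 28.3 was 12.3 at a −log10 q of at least 5 (permutation p = 0.0518, adjusted p = 0.311) and 4.75 with lists of equal length (adjusted p = 0.262). With 1 animal left out it ranged from 23.1 to 31.1 (adjusted p from 0.0018 to 0.0107). The count of F-box regions past Fisher's exact test and past limma was 0 under every alternative run. Keeping only listed peaks whose mean levels differed by at least 1 left, higher and lower, 4 and 3 for KI over WT in naive mice of 5 months, 3 and 0 in naive of 8 months, 0 and 2 in trained of 5 months, 1 and 1 in trained of 8 months, and for trained over naive 3 and 0 in WT of 5 months, 0 and 3 in KI of 5 months, 1 and 2 in WT of 8 months, 2 and 1 in KI of 8 months. Of the first 4, 1 carried the symbol Fbxw11 but lay in Btrc (9.57 in KI and 8.55 in WT), so it is not among the peaks on F-box gene bodies. The GGAC share at F-box summits was 25.9% in a window of 50 bases and 69.8% in 200 bases, and the DRACH share 64.4% and 96.1%, since the window sets how many letters are searched. Over all summits the shares were 24.2% and 62.7% for GGAC, and 66.0% and 94.9% for DRACH. Leaving 1 animal out apart, 67 further comparisons at named regions kept direction and side of the threshold. Another 121 comparisons of main results were labelled as kept, where a count or share only had to stay close to its main value. Many of these were the counts of F-box regions past a test that were 0 throughout, which have no direction. Yield per library is known only through the number of peaks, 3 animals per condition limit every pairwise test, and input levels were not used.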
